A study of Homo sapiens with 6 samples.

Results

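The bile acid receptor FXR and the genes of its feedback loop were examined in HepaRG cells loaded with fatty acids. These are 9 genes, chosen by their symbols from the 58037 gene rows of the table: the receptor NR1H4 (FXR), the repressor NR0B2 (SHP), the hormone FGF19, its receptor FGFR4 and co-receptor KLB, the exporter subunits SLC51A and SLC51B, and the canalicular transporters ABCB11 and ABCB4. HepaRG is a human hepatic line, labelled as hepatocellular carcinoma cells, whose cultures, once differentiated, hold hepatocyte-like cells beside biliary-like ones. In 3 samples differentiated cells received 0.5 mM of palmitate and oleate, in parts of 1 and 2, on bovine serum albumin at 0.02% for 72 h, and 3 control samples received the albumin at 0.02% alone for 72 h. All 6 samples came from passages 15 to 18 and had 14 days of growth, 14 days of differentiation and 5 days in basal medium, which contained insulin and hydrocortisone. Each sample gave 1 poly-A RNA library. Whether the replicates were separate cultures is not labelled, so the p-values reflect only how these samples differ among themselves, which may be technical.

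FXR is a nuclear receptor that bile acids activate, and it pairs with the retinoid X receptor on DNA. In liver it induces SHP, a receptor without a DNA-binding domain that represses other nuclear receptors, and the bile acid exporters. In the gut it induces FGF19, a hormone that reaches hepatocytes in portal blood and acts on FGFR4 with beta-klotho, the KLB product. Both arms lower CYP7A1, the first enzyme of classical bile acid synthesis.

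Expression was read as FPKM (fragments divided by the gene's length in kilobases and by the library's total in M), so levels are per length. Levels of different genes set beside each other are approximate, since they rest on the length given for each gene. The reads behind the values numbered 8.36 to 15.94 M in the fatty acid libraries and 6.33 to 11.82 M in the control libraries. The test was limma on log2(FPKM + 0.5), over genes whose mean reached 0.5 FPKM. Of the 9 genes 4 passed this minimum (NR1H4, FGFR4, KLB and ABCB4) and 5 did not (NR0B2, FGF19, SLC51A, SLC51B and ABCB11). Of the 4 tested, 1 fell with fatty acid, none rose and 3 did not pass, where 12.9% of all 14661 tested genes passed in either direction, 4.68% lower and 8.22% higher. The gene called lower was FGFR4. The median log2 fold change of the 4 was -0.18, beside 0.04 for all tested genes. Mitochondrially encoded genes took 9.15% to 11.9% of reads in fatty acid libraries and 12.2% to 15.0% in control libraries. Scaling to the reads of nuclear genes, which leaves those reads out, gave log2 fold changes of -0.48 for FGFR4 (limma adjusted p = 0.0216), -0.17 for NR1H4 (0.183), -0.29 for KLB (0.266) and 0.02 for ABCB4 (0.855), with FGFR4 again the gene that passed.

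NR1H4 (ENSG00000012504.13, chromosome 12, 100473708 to 100564413, plus strand) stood at 6.67, 6.10 and 6.80 FPKM in fatty acid replicates 1, 2 and 3, against 7.51, 6.71 and 7.14 FPKM in the control replicates. The groups overlapped, since fatty acid replicate 3 was above control replicate 2. The means were 6.52 ± 0.373 FPKM with fatty acid and 7.12 ± 0.401 FPKM in controls (SD, n = 3 each). The log2 fold change was -0.12 ± 0.07 (SE), with a 95% interval of -0.29 to 0.05 and a limma adjusted p of 0.313. The interval corresponds to a ratio between 0.819 and 1.04. The direction was lower in 16 of 17 alternative settings, and rescaling to TPM, which moved the median of all genes up by 0.13, gave a log2 fold change of 0.01 (limma adjusted p = 0.95). By reads, 871 in the fatty acid libraries and 672 in the controls gave a depth-adjusted ratio of 0.909 (95% exact interval 0.821 to 1.01, counting error only).

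The receptor's partner and coregulators gave no call. In this list of 14 genes (RXRA, RXRB, coactivators of the NCOA family, PPARGC1A, corepressors and chromatin enzymes) all were tested and none passed with limma, though 2 were higher with limma voom on recovered reads and 3 after rescaling to TPM. The median log2 fold change was 0.14. RXRA, the partner of FXR in liver, averaged 11.9 ± 0.178 FPKM with fatty acid and 12.0 ± 0.821 FPKM in controls, a log2 fold change of -0.01 (95% interval -0.16 to 0.14, limma adjusted p = 0.939). Of the 2 with the smallest p, the deacetylase gene SIRT1 averaged 4.25 ± 0.246 and 3.38 ± 0.411 FPKM with fatty acid and in controls (limma adjusted p = 0.0877), and RXRB 7.51 ± 0.897 and 8.98 ± 0.475 FPKM (limma adjusted p = 0.123). SIRT1 passed without control replicate 2 (0.0428), and 2 genes of the list were then higher.

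**Figure D1:**
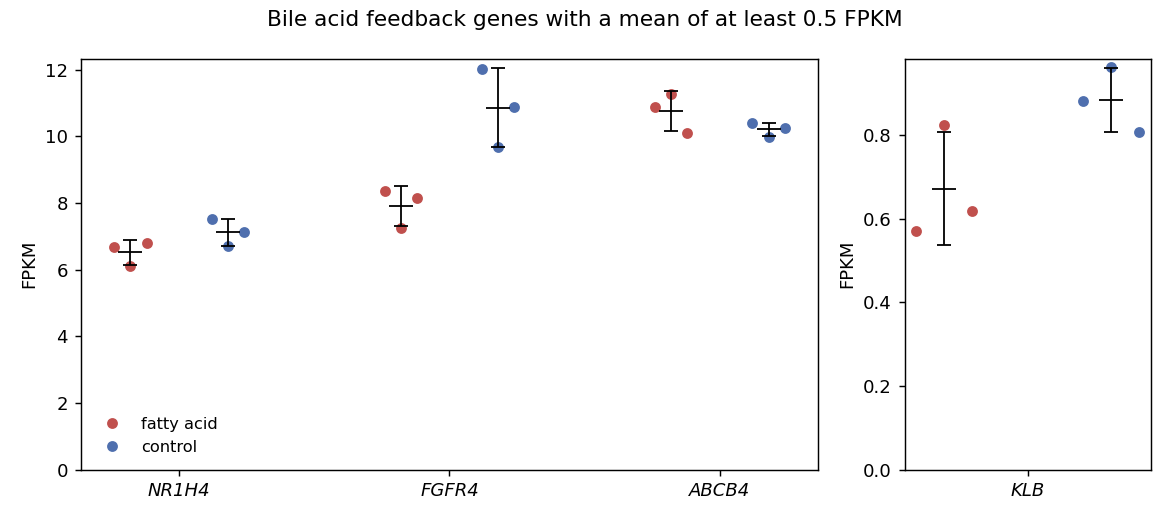
FPKM in each library for the 4 genes above the minimum, with fatty acid points left of control points; black bars give the mean ± SD of 3 libraries, and KLB has an axis of its own. For FGFR4 the fatty acid libraries reached at most 8.37 FPKM and the control libraries at least 9.68 FPKM, while the groups of NR1H4, ABCB4 and KLB overlapped.

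The FGF19 receptor gene was the only member called lower. FGFR4 (ENSG00000160867.14, chromosome 5, 177086886 to 177098144, plus strand), a tyrosine kinase and the main FGF receptor of hepatocytes, stood at 8.37, 7.24 and 8.16 FPKM in fatty acid replicates 1, 2 and 3, against 12.0, 9.68 and 10.9 FPKM in the control replicates. Every fatty acid library was below every control library. Over all tested genes 37.1% had groups that did not overlap. The means were 7.92 ± 0.601 FPKM with fatty acid and 10.9 ± 1.18 FPKM in controls, a ratio of means of 0.729. The log2 fold change was -0.43 ± 0.09 (95% interval -0.65 to -0.21, limma adjusted p = 0.0276). Its reads, 1468 with fatty acid and 1438 in controls, gave a depth-adjusted ratio of 0.716 (95% exact interval 0.665 to 0.771).

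The direction of FGFR4 held in all 17 alternatives and its call in 10. The call was lost on leaving out control replicate 3 (limma adjusted p = 0.0725) or any fatty acid replicate (0.079, 0.109 and 0.0655 for replicates 1 to 3), with no filter (0.0678), on the TPM scale (0.0689) or without the intensity trend (0.0565). With limma voom on recovered reads the adjusted p was 0.00179. Over the alternatives the log2 fold change ran from -0.51 to -0.31.

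**Figure D2:**
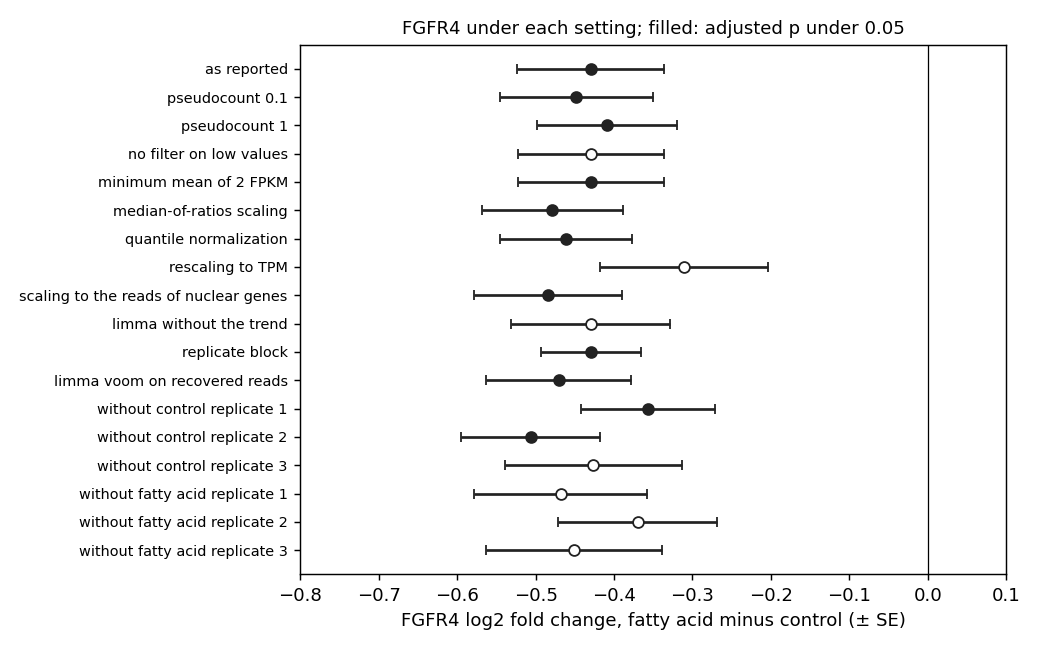
Log2 fold change of FGFR4 (fatty acid minus control, ± SE) as reported and under each of 17 alternative settings, 1 per row; filled points have a limma adjusted p under 0.05. All points lie between -0.51 and -0.31, and 7 of the alternatives are open.

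Beta-klotho, which makes FGFR4 responsive to FGF19 and also serves FGF21, was far less abundant. KLB (ENSG00000134962.6, chromosome 4, 39406853 to 39451536, plus strand) stood at 0.57, 0.824 and 0.619 FPKM in fatty acid replicates 1, 2 and 3, against 0.88, 0.961 and 0.807 FPKM in the control replicates. Fatty acid replicate 2 lay above control replicate 3, so the groups overlapped. The means were 0.671 ± 0.135 FPKM with fatty acid and 0.883 ± 0.077 FPKM in controls. Their ratio was 0.76, near the 0.729 of FGFR4. The log2 fold change was -0.24 ± 0.15 (95% interval -0.60 to 0.11, limma adjusted p = 0.319), and KLB passed under none of the 16 alternatives that included it (adjusted p 0.169 to 0.577). The KLB log2 fold change was -0.36 with 0.1 FPKM added in place of 0.5, and -0.36 with voom on recovered reads. The values rest on 161 reads with fatty acid and 143 in controls, with a read ratio of 0.79 (95% exact interval 0.626 to 0.996, counting error only). This interval leaves out the spread between libraries, which the limma interval includes.

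FGFR4 exceeded KLB in every library. The ratio of their FPKM was 14.7, 8.78 and 13.2 in fatty acid replicates 1, 2 and 3, against 13.7, 10.1 and 13.5 in the control replicates. The geometric means were 11.9 with fatty acid and 12.3 in controls, a log2 difference of -0.04 (exact permutation test, two-sided p = 0.8). With 3 libraries in each group the smallest p of this test is 0.1.

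The hormone itself was at 0. FGF19 (ENSG00000162344.3, chromosome 11, 69698232 to 69704642, minus strand) had 0 reads in each of the 6 libraries. With 3 reads as the limit that a count of 0 allows, its level was at most 0.0317 FPKM over the fatty acid libraries and 0.0452 FPKM over the controls, so no comparison was possible at this depth. FGF21, a related hormone that signals through KLB with other FGF receptors, was singled out after its values were seen. It stood at 0.547, 0.584 and 0.382 FPKM in fatty acid replicates 1, 2 and 3, from 25 reads, and had 0 reads in the control libraries. The ratio of fatty acid to a floor of 3 reads over the control group was 5.84, which leaves out the counting error of the 25 reads, and the lower 95% exact limit of the read ratio was 4.41. FGF21 lay under the minimum of the test, and limma with no filter gave it an adjusted p of 0.0112.

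Of 18 further genes of FGF19 signalling, 16 were tested, of which 2 rose, 2 fell and 12 did not pass, with a median log2 fold change of -0.06. Of all tested genes 12.9% passed, 4.68% lower and 8.22% higher, and whether any list differed from that share was not tested. The falls were other FGF receptors. FGFR2 averaged 5.80 ± 0.440 FPKM with fatty acid and 7.65 ± 0.250 FPKM in controls (limma adjusted p = 0.0199), and FGFR3 averaged 1.79 ± 0.209 and 2.78 ± 0.172 FPKM (0.0208). FGFR1 averaged 1.39 ± 0.119 FPKM with fatty acid and 1.49 ± 0.083 FPKM in controls, with a log2 fold change of -0.07 (95% interval -0.32 to 0.18, limma adjusted p = 0.696). The risers were intracellular relays of receptor tyrosine kinases. The phosphatase gene PTPN11 (SHP2) rose to 37.4 ± 0.565 FPKM with fatty acid, against 30.5 ± 0.487 FPKM in controls (limma adjusted p = 0.00992). The exchange factor gene SOS1 rose to 11.0 ± 0.513 FPKM with fatty acid, against 7.97 ± 0.762 FPKM in controls (0.0161).

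Each of those 4 calls was lost on leaving out some single libraries, while its direction held. Calls over all genes also dropped, from 1891 to 462, 486 and 938 without fatty acid replicates 1, 2 and 3. Without fatty acid replicate 1 the limma adjusted p was 0.065 for PTPN11, 0.0763 for SOS1 and 0.0718 for FGFR3, and without fatty acid replicate 2 it was 0.054, 0.079 and 0.0796 for them and 0.0901 for FGFR2. FGFR2 was also lost on leaving out fatty acid replicate 3 (0.0648) and on the TPM scale (0.0921), and FGFR3 without control replicate 3 (0.0564) or with no filter (0.0603). Without control replicate 2, 4 genes of the list were lower.

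NR0B2 (ENSG00000131910.4, chromosome 1, 26911489 to 26913966, minus strand), which encodes SHP, was barely detected. It had 2, 3 and 7 reads in fatty acid replicates 1, 2 and 3, against 8, 0 and 5 reads in the control replicates. In FPKM these are 0.207, 0.181 and 0.38 with fatty acid, against 0.772, 0 and 0.366 in controls. The controls included both the highest and the lowest library, so the groups overlapped. The read ratio was 0.647 with a 95% exact interval of 0.27 to 1.54, and it ran from 0.459 to 1.13 when single libraries were left out. The values allow both a fall and a rise, and a change within that interval was not detectable at this depth. NR0B2 lies inside NUDC, which is on the other strand and had 27.0 to 31.9 FPKM, but the exons of the pair share 0 bases in GENCODE 29.

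The exporter OSTα-OSTβ, which moves bile acids across the basolateral membrane and needs both subunits, was near 0. SLC51A (ENSG00000163959.9, chromosome 3, 196211487 to 196243178, plus strand) had 1, 3 and 1 reads in fatty acid replicates 1, 2 and 3, against 2, 1 and 2 reads in the control replicates. SLC51B (ENSG00000186198.3, chromosome 15, 65045370 to 65053396, plus strand) had 1, 3 and 4 reads with fatty acid, against 0, 2 and 3 reads in controls. Neither subunit exceeded 0.336 FPKM in any library, and the groups overlapped for both. The read ratios were 0.701 (95% exact interval 0.161 to 3.05) for SLC51A and 1.12 (0.324 to 4.36) for SLC51B, so changes of several-fold were not detectable. When single libraries were left out they ran from 0.446 (without fatty acid replicate 2) to 0.955 for SLC51A, and from 0.751 (without control replicate 1) to 1.58 (without control replicate 3) for SLC51B. SLC51A shares 7.35% of its exon bases with PCYT1A on the other strand (8.88 to 10.5 FPKM), and whether reads were counted by strand is not known here.

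**Figure D3:**
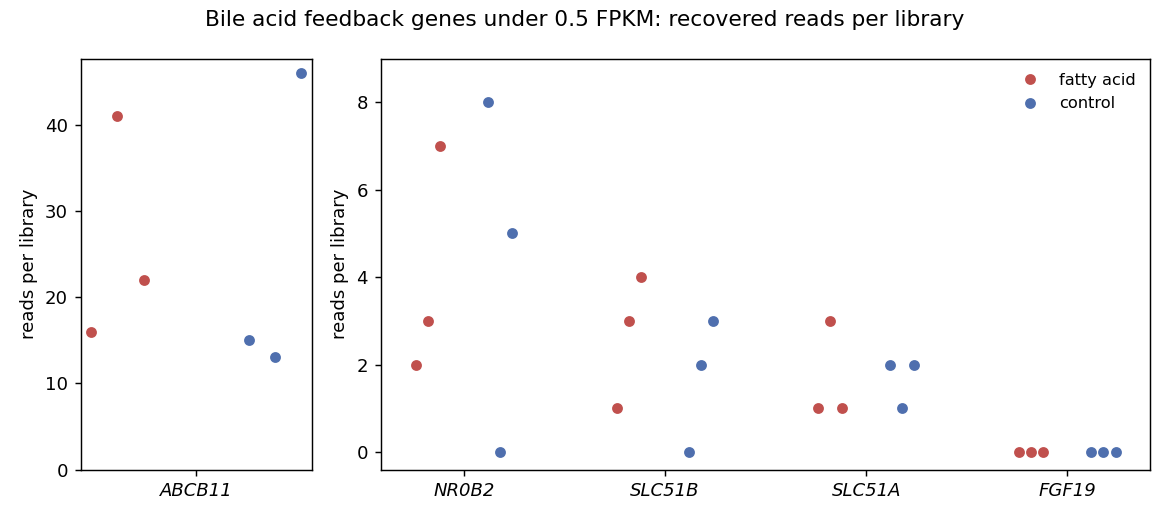
Recovered reads per library for the 5 genes under the minimum, with fatty acid points left of control points and an axis of its own for ABCB11; reads are not adjusted for depth. NR0B2, SLC51B and SLC51A have at most 8 reads in any library and FGF19 has 0 in all 6, while ABCB11 has between 13 and 46.

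The canalicular transporters stood far apart in level. ABCB11 (ENSG00000073734.8, chromosome 2, 168922938 to 169031322, minus strand) encodes BSEP, the bile salt export pump. It stood at 0.371, 0.554 and 0.268 FPKM in fatty acid replicates 1, 2 and 3, against 0.325, 0.399 and 0.755 FPKM in the control replicates. Control replicate 3 was the highest library and fatty acid replicate 3 the lowest, and the groups overlapped. From 79 reads with fatty acid and 74 in controls the read ratio was 0.749 (95% exact interval 0.538 to 1.04), and without control replicate 3 it was 1.12. Under no filter the log2 fold change was -0.13 (limma adjusted p = 0.768).

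ABCB4 (ENSG00000005471.15, chromosome 7, 87401697 to 87480435, minus strand) encodes MDR3, which delivers phosphatidylcholine to bile and so shields the canaliculus from bile salts. It stood at 10.9, 11.3 and 10.1 FPKM in fatty acid replicates 1, 2 and 3, against 10.4, 9.99 and 10.3 FPKM in the control replicates. Fatty acid replicate 3 lay within the control range, so the groups overlapped. The means were 10.8 ± 0.604 FPKM with fatty acid and 10.2 ± 0.204 FPKM in controls. The log2 fold change was 0.07 ± 0.06 (95% interval -0.07 to 0.22, limma adjusted p = 0.48), a ratio between 0.949 and 1.16. It was above 0 in all 17 alternatives (0.02 to 0.21) and passed in none. ABCB4 exceeded ABCB11 by 13.6- to 37.7-fold in the 6 libraries, with geometric means of 28.3 with fatty acid and 22.2 in controls (log2 difference 0.35, exact permutation p = 0.6).

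The order of the 9 levels placed 3 genes well above the rest. With fatty acid it ran ABCB4, FGFR4, NR1H4, KLB, ABCB11, NR0B2, SLC51B, SLC51A and FGF19. The library ranges of ABCB4, FGFR4, NR1H4, KLB and ABCB11 were apart with fatty acid, while that of NR0B2 overlapped those of ABCB11 and SLC51B. In controls FGFR4 (9.68 to 12.0 FPKM) and ABCB4 (9.99 to 10.4 FPKM) overlapped, and the order from NR1H4 down was the same as with fatty acid. In control libraries KLB, ABCB11 and NR0B2 had ranges of 0.807 to 0.961, 0.325 to 0.755 and 0 to 0.772 FPKM, so KLB was apart from both. Spread within a group was smallest for ABCB4 and NR1H4 (coefficients of variation of 5.61% and 5.73% with fatty acid, 2.00% and 5.64% in controls).

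Ratios within a library do not depend on its depth, and 3 of them were added after the values were seen. The ratio of FGFR4 to ABCB4 was 0.768, 0.641 and 0.808 in fatty acid replicates 1, 2 and 3, against 1.16, 0.969 and 1.06 in the control replicates. Its groups did not overlap, and the log2 difference was -0.53 (exact permutation p = 0.1, the smallest possible, unadjusted). The ratio of FGFR4 to NR1H4 was 1.25, 1.19 and 1.20 with fatty acid, against 1.60, 1.44 and 1.52 in controls, with a log2 difference of -0.33 (exact permutation p = 0.1). Both ratios carry the FGFR4 values, whose groups already did not overlap, so they are no separate evidence of its fall. The ratio of ABCB4 to NR1H4 overlapped between groups (log2 difference 0.20, exact permutation p = 0.2). Adjusted over the 5 ratios with a test, these p-values were 0.8 for FGFR4 to KLB, 0.75 for ABCB4 to ABCB11, 0.25 for FGFR4 to NR1H4, 0.25 for FGFR4 to ABCB4, 0.333 for ABCB4 to NR1H4.

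Enzymes of bile acid synthesis and conjugation fell in part. Any link of these falls to NR0B2, with at most 8 reads per library, or to FGF19, at 0, was not tested. Of 15 genes of bile acid synthesis and conjugation, 13 were tested, of which 6 fell, 2 rose and 5 did not pass, with a median log2 fold change of -0.30. The genes named below all fell, and the 2 that rose are not named, so the list went in both directions. CYP7A1 stood at 0.446, 0.496 and 0.553 FPKM in fatty acid replicates 1, 2 and 3, against 2.57, 3.05 and 4.13 FPKM in the control replicates. The groups lay far apart, with a log2 fold change of -1.89 ± 0.16 (limma adjusted p = 0.000667). The added 0.5 FPKM understates changes at such low levels, also for AKR1D1 at 0.87 FPKM with fatty acid. Reads of CYP7A1, 58 with fatty acid and 269 in controls, gave a depth-adjusted ratio of 0.151. CYP8B1, the sterol 12α-hydroxylase that sets the share of cholic acid, was named after its values were seen, with means of 1.28 ± 0.101 FPKM with fatty acid and 3.99 ± 0.788 FPKM in controls (limma adjusted p = 0.00191). The reductase genes AKR1D1 and AKR1C4 had log2 fold changes of -1.70 ± 0.13 and -1.44 ± 0.09, and BAAT, which joins bile acids to glycine or taurine, of -0.63 ± 0.05 (limma adjusted p 0.000334, 0.000176 and 0.00063). Reads of AKR1C4 may be divided with its near-identical relatives. The number that rose was 1 on leaving out control replicate 3 or any fatty acid replicate.

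Among 12 nuclear receptors that SHP represses or that act beside it, 10 were tested, of which 2 fell, 1 rose and 7 did not pass, with a median log2 fold change of -0.13. The share of all tested genes that passed was 12.9%, with 4.68% lower and 8.22% higher. NR1I2 (PXR, a xenobiotic and bile acid sensor) averaged 2.10 ± 0.303 FPKM with fatty acid and 4.44 ± 0.259 FPKM in controls (limma adjusted p = 0.0022). HNF4A, which drives CYP7A1 and many hepatocyte genes, averaged 11.7 ± 0.715 FPKM with fatty acid and 16.7 ± 1.36 FPKM in controls (0.00923). NR5A2 (LRH-1, a classical partner that SHP represses at CYP7A1) averaged 3.34 ± 0.111 FPKM with fatty acid and 2.13 ± 0.472 FPKM in controls (0.038). The call of HNF4A was lost when fatty acid replicate 1 or 2 was left out (0.0547 and 0.0527). That of NR5A2 was lost on leaving out control replicate 3 (0.0742) or any fatty acid replicate (0.127, 0.116 and 0.0984 for replicates 1 to 3), and with no filter (0.103), scaling to the median of ratios (0.0626), quantile normalization (0.054), scaling to nuclear reads (0.0634), no trend (0.0604) or the replicate block (0.0525).

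**Figure D4:**
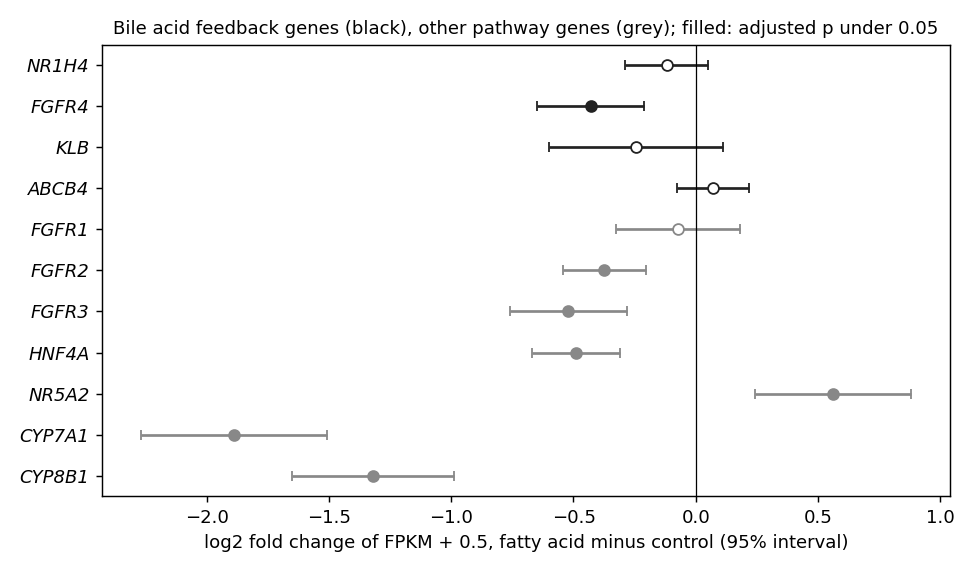
Log2 fold change of FPKM + 0.5 (fatty acid minus control) with its 95% interval for the 4 tested feedback genes in black and 7 pathway genes in grey; filled points have a limma adjusted p under 0.05. FGFR4 is the filled point among the black ones at -0.43, while CYP7A1 and CYP8B1 lie at -1.89 and -1.32.

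Of 15 other transporters of bile acids and bile lipids, 13 were tested, of which 6 fell, 2 rose and 5 did not pass, with a median log2 fold change of -0.28. The importer genes SLCO2B1 and SLC10A1 (NTCP) had log2 fold changes of -1.20 ± 0.14 and -1.13 ± 0.16 (limma adjusted p 0.00311 and 0.00617). ABCC4, a basolateral exporter of bile acids, rose with 0.51 ± 0.09 (0.0135), and TMEM30A, a subunit of phospholipid flippases, with 0.29 ± 0.05 (0.0139). SLC10A2, the apical bile acid importer, had 0 reads in all libraries. Neither riser passed on leaving out fatty acid replicate 1 (0.0679 and 0.0798) or replicate 2 (0.0713 and 0.0722), and TMEM30A did not without the trend (0.0507). The genes that fell numbered 3 without control replicate 3, 2 without any 1 fatty acid replicate, 2 with no filter and 3 without the trend.

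Of 21 other genes reported as FXR targets, 17 were tested, of which 10 fell, 4 rose and 3 did not pass, with a median log2 fold change of -0.56. The list mixes genes that FXR is reported to induce with genes it is reported to repress, so its count has no single direction. Its summed level was 6827 to 6955 FPKM in fatty acid libraries and 5468 to 5698 FPKM in control libraries. In this sum the most abundant genes weigh most, among them FGA, which rose (below). The sum therefore does not describe most genes of the list, of which 10 fell. KNG1 (kininogen) averaged 58.9 ± 1.81 FPKM with fatty acid and 115 ± 2.14 FPKM in controls, and UGT2B4, a glucuronosyltransferase of bile acids, 89.9 ± 1.24 and 149 ± 2.78 FPKM (limma adjusted p 8.7e-05 and 0.000159). APOC3, reported as repressed by FXR and an inhibitor of lipoprotein clearance, averaged 319 ± 11.8 FPKM with fatty acid and 816 ± 118 FPKM in controls, and the plasma glycoprotein gene AHSG 9.98 ± 0.68 and 24.6 ± 1.33 FPKM (limma adjusted p 0.000332 and 0.000135). The 4 that rose, named after their values were seen, were the fibrinogen chain genes FGA, FGB and FGG and the adhesion molecule gene ICAM1. FGA averaged 2093 ± 27.4 FPKM with fatty acid and 1316 ± 40.8 FPKM in controls (limma adjusted p = 0.000455). The log2 fold changes were 0.67 ± 0.05 for FGA, 0.71 ± 0.08 for FGB, 0.65 ± 0.05 for FGG and 0.64 ± 0.08 for ICAM1. The number that rose was 4 in each of the 17 alternatives.

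Most hepatocyte markers fell, as FGFR4 did. Of 18 hepatocyte markers, all tested, 14 were lower, 1 was higher and 3 did not pass, and their summed level was 12552 to 13162 FPKM in fatty acid libraries and 18863 to 18958 FPKM in control libraries. The falls with the smallest adjusted p were those of CPS1, TF, TTR and TAT, with log2 fold changes of -1.56, -1.05, -1.27 and -1.46. The 1 that was higher, SERPINA1 (alpha-1 antitrypsin, named after its values were seen), had a log2 fold change of 0.27 ± 0.06 (limma adjusted p = 0.0289), and no marker was called higher without control replicate 2 or 3, without any 1 fatty acid replicate, with no filter, with quantile normalization or without the trend. Their part in the fall of FGFR4 was not tested, and fewer cells of a type cannot be told apart from less RNA per cell in these bulk libraries. Of 13 biliary markers 6 were tested, 1 fell (CD24, log2 fold change -0.36, limma adjusted p = 0.00474, not called after rescaling to TPM at 0.0513) and none rose. The biliary sum was 427 to 443 FPKM with fatty acid and 447 to 522 FPKM in controls, with EPCAM and SCTR at 0. Of 10 mesenchymal markers 7 were tested and 1 rose (LUM, 0.45, limma adjusted p = 0.00846, not called without fatty acid replicate 1 at 0.0538), with sums of 118 to 126 FPKM with fatty acid and 101 to 111 FPKM in controls and THY1 at 0. Beside the 12.9% of all tested genes that passed, 1 call among 6 biliary or 7 mesenchymal markers says little about either list. Of 11 immune and endothelial markers only CD14 was tested (limma adjusted p = 0.269, and 0.0145 without control replicate 1), with sums of 13.6 to 14.8 FPKM with fatty acid and 9.62 to 14.6 FPKM in controls, and CDH5, CLEC4G and CD3E at 0.

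The genes whose profile over the 6 libraries was most like that of NR1H4 were CIRBP, MAZ and RAP1GAP. Likeness was the Euclidean distance between log2(FPKM + 0.5) values centred on their mean, over 11015 protein-coding genes, and these had distances of 0.039, 0.0433 and 0.0482, beside a median of 0.398. NR1H4 itself lay only 0.211 from a flat profile, so genes that vary little also lie near it. Shared regulation was not tested. For NR0B2 they were TMEM160, MIIP and FBXL6, at 0.293, 0.323 and 0.371 beside a median of 1.06. The NR0B2 profile rests on 0 to 8 reads per library.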

How the data were processed

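The authors deposited FPKM, to 3 decimals, for 58037 genes in 6 libraries, beside gene positions and lengths per the file headers. A stranded mRNA kit was used with 100 ng of RNA, per the labels' protocols. GRCh38, featureCounts, Subread 1.5.1 and STAR 2.5.2 are listed in the submitters' processing notes. FPKM times length gave whole multiples of 1 read in each library (100% of values printed finely enough, tolerance 0.02 reads beyond rounding), so reads and depth were recovered from the deposited FPKM.

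Groups and replicate numbers came from the titles. All genes whose mean reached 0.5 FPKM were fitted together with limma 3.58.1 (R 4.3.3, intensity trend) on log2(FPKM + 0.5), which understates changes of low genes, with Benjamini-Hochberg adjustment over 14661 genes and a threshold of 0.05. An adjusted p in the text is from this fit unless another is named. Read ratios have exact conditional intervals at 95%, cover counting error only, and use a floor of 3 reads. Ratios of FPKM were tested by exact two-sided permutation with scipy 1.17.1. The 9 genes and the pathway lists were chosen with earlier results of these data known. Named genes were the 9, up to 4 called genes with the smallest adjusted p per list (2 by p if there was no call), and the 3 genes nearest in profile to NR1H4 and NR0B2; RXRA, FGFR1, FGF21, CYP8B1, SERPINA1, the 4 risers among FXR targets and genes at 0 were named after their values were seen. Alternatives were pseudocounts of 0.1 and 1, other filters and scalings, no trend, the replicate block, voom on recovered reads and each library left out; read ratios and 3 FPKM ratios were added after seeing the data.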

Additional observations from a re-analysis of the deposited data

How the results depend on the processing

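FGFR4 was the only gene of the 9 called as reported, and the number called lower was 0 with no filter, after rescaling to TPM and without the intensity trend, and ran from 0 to 1 over the fits that left out 1 library; no gene of the 9 was called higher in any alternative. Over all genes, 1205 were higher and 686 lower as reported. The higher genes numbered 640 with no filter, 717 with median-of-ratios scaling, 758 with quantile normalization, 2615 after rescaling to TPM, 710 with scaling to nuclear reads, 642 without the trend and 1846 with voom, and the lower genes 337 with no filter, 408 after rescaling to TPM and 1153 with voom. Leaving out 1 library gave 230 to 1105 higher and 232 to 677 lower. Over the 10 pathway and marker lists together, 13 were higher and 41 lower as reported, and 5 to 14 higher and 29 to 44 lower when 1 library was left out. The cause of these shifts was not tested. NR1H4 turned direction after rescaling to TPM (0.00965). The log2 difference of the FGFR4 to KLB ratio ran from -0.19 to 0.18 and that of ABCB4 to ABCB11 from -0.0019 to 0.62 when single libraries were left out. Ratios of NR0B2 to NR1H4 and of SLC51B to SLC51A could not be taken in every library, since 1 control library had 0 reads of NR0B2 and 1 had 0 of SLC51B.

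The titles number replicates 1 to 3 in both groups. Deviations of same-numbered libraries from their group means correlated at 0.012, 0.084 and 0.022 across genes, so the numbers were not taken as pairs. With the replicate block 817 genes were higher and 657 lower, FGFR4 remained called (adjusted p 0.0203), and the other 3 tested genes of the 9 did not pass. Depth limits NR0B2, SLC51A, SLC51B and FGF19, whose intervals span changes in both directions or have no value. It also limits ABCB11, with 13 to 46 reads per library and a read ratio interval of 0.538 to 1.04.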
